A study of Mus musculus with 12 samples.

Results

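Growing oocytes of wild-type (WT) mice at day 14 were separated by micromanipulation into nucleus and cytoplasm, and the RNA of the 3 nuclear libraries (WT nucleus replicates 1 to 3) was set against that of the 3 cytoplasmic libraries (WT cytoplasm replicates 1 to 3). These are 6 of the 12 libraries of the study; the other 6 hold the same compartments of oocytes labelled Mtr4-null, for the RNA helicase MTR4, 1 of which goes against that label. Each library was made from the total RNA of 10 nuclei or 10 cytoplasms after ribosomal RNA had been removed. The labels give the genotype, the compartment and the day, but no strain, no treatment and no allele or Cre line behind Mtr4-null. The design text speaks of duplicates where 3 libraries are labelled, and no label states that they are from different mice. The p-values therefore rest on how far these libraries differ from each other, and that difference may be technical. Of 23235 gene entries, 12034 reached 1 FPKM in at least 3 of the 6 libraries and were tested. FPKM is the number of sequenced fragments of a gene relative to the length of its transcript and to all mapped fragments, so it is a share of a library and not an amount per cell.

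RNA is made in the nucleus, where it is capped, spliced and polyadenylated, and most mature mRNA is then exported to the cytoplasm to be translated or stored. Small nucleolar RNAs (snoRNAs) and small Cajal body RNAs (scaRNAs), which guide the modification of ribosomal and spliceosomal RNA, are mostly cut from introns and work inside the nucleus, as do several long noncoding RNAs. A growing oocyte has a single large nucleus, the germinal vesicle, arrested in meiotic prophase, and fills its cytoplasm with maternal mRNA that serves maturation and the early embryo.

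Malat1, a long noncoding RNA of nuclear speckles, was at 487, 262 and 596 FPKM in the nuclei and at 2.72, 0.468 and 0.365 FPKM in the cytoplasms. All 12 oocyte markers averaged at least 1 FPKM in both compartments, among them Gdf9, Zp3 and Nobox. The summed FPKM of 12 granulosa cell markers was 14.9 to 23.0 in the nuclei and 34.2 to 41.1 in the cytoplasms, with Foxl2, Fst and Gja1 below 1 FPKM in all 6 libraries. Nr5a2 was the highest of them, at 13.5, 5.18 and 8.06 FPKM in the nuclei and 26.6, 28.4 and 30.6 FPKM in the cytoplasms. Cyp19a1 and Kitl reached at most 5.51 and 3.49 FPKM. Of 10 theca and stroma markers the sum was 37.0 FPKM in nucleus replicate 2 and 5.63 and 3.96 FPKM in the other 2 nuclei, against 1.0 to 1.86 FPKM in the cytoplasms, with Cyp17a1, Lhcgr, Lum and Pdgfra below 1 FPKM throughout. In nucleus replicate 2 the collagen genes Col1a1, Col1a2 and Col3a1 were at 18.4, 8.12 and 6.25 FPKM. Star was at 2.75, 2.40 and 1.04 FPKM in the nuclei and at most 0.162 FPKM in the cytoplasms. Of 8 blood and endothelium markers, 3 were listed at 0 in all 6 libraries. Pecam1 was the highest, at 3.37, 2.81 and 6.05 FPKM in the nuclei and 9.82, 16.5 and 12.2 FPKM in the cytoplasms. The part that other cells have in any result was not tested.

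Small RNA genes held most of the summed FPKM of the nuclei, a share of values divided by length and not of sequenced fragments. Genes named Scarna, Snora, Snord, Mir, Rnu or Rn7s held 87.3, 84.2 and 88.6% of the summed FPKM in the nuclei and 10.2, 4.41 and 5.35% in the cytoplasms (exact permutation test, two-sided, p = 0.10, the smallest that 3 against 3 can give). A single gene, Scarna2, held 79.6, 73.2 and 79.1% of the nuclear sums. It held 3.59% of cytoplasm replicate 1 and was listed at 0 in cytoplasm replicates 2 and 3. Even without the small RNA genes, 10 structured noncoding RNAs such as Rmrp held 38.3, 25.8 and 37.5% of the nuclear sums but 1.27, 0.270 and 0.157% of the cytoplasmic ones. Genes that GENCODE calls protein-coding then took 56.7, 69.6 and 57.3% of the nuclei and 95.6 to 96.6% of the cytoplasms. At least 1 FPKM was reached by 12491, 11473 and 12750 genes in the nuclei and by 11132, 10933 and 11098 in the cytoplasms (exact permutation p = 0.10).

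**Figure D1:**
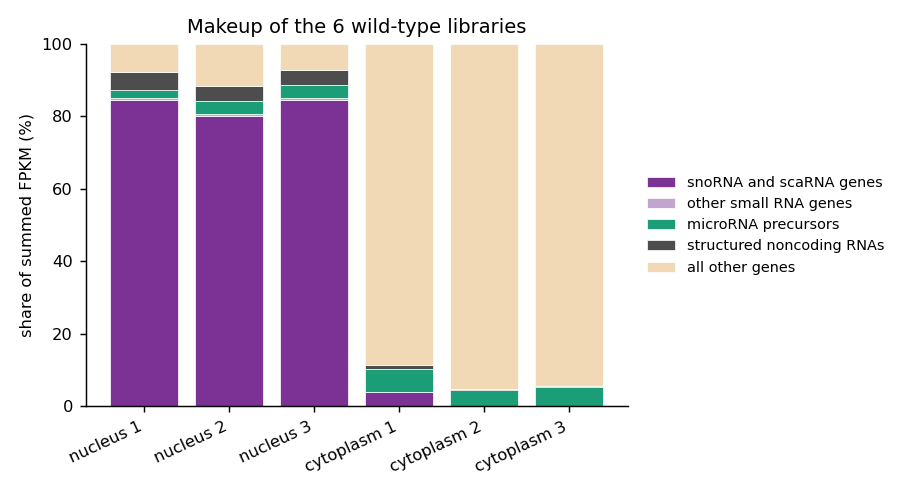
Share of the summed FPKM (%, vertical axis) held by classes of RNA in each of the 6 wild-type libraries, as deposited. SnoRNA and scaRNA genes hold 80.0 to 84.6% of the 3 nuclei and 0.0489 to 3.92% of the 3 cytoplasms.

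How far a gene differed between the compartments depended on what each library was scaled to. The median gene stood at -1.0 on the log2 scale (nucleus minus cytoplasm) as deposited, and at -0.65 after the small RNA genes were left out and each library was rescaled to a sum of 1000000. It stood at -0.12 under median-of-ratios scaling and -0.23 under quantile normalization of the rescaled set, and at -0.09 when the structured noncoding RNAs were left out too. All log2 differences are of log2(value + 1), which understates the change of genes with low values. As deposited, limma called 8746 genes (72.7% of those tested; adjusted p below 0.05), 1494 higher in the nucleus (12.4%) and 7252 higher in the cytoplasm (60.3%). After rescaling, 11977 genes were tested 7442 were called (62.1%), with 1930 higher in the nucleus (16.1%) and 5512 in the cytoplasm (46%). On both scales at once 6966 genes were called (58.2%), of which 1454 were higher in the nucleus (12.1%) and 5512 in the cytoplasm (46%), and no gene was called in opposite directions.

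Calls that held under all 5 of these scalings were 1255 higher in the nucleus (10.5%) and 1206 higher in the cytoplasm (10.1%). These shares are the background for each gene group below, and a call under all 5 is meant where a gene is said to lie to the nuclear or the cytoplasmic side. Without nucleus replicate 2 they were 1531 and 1699 genes, and without cytoplasm replicate 1 they were 909 and 433; 1216 and 1109, and 907 and 428 of these were among the calls from all 6 libraries. When no gene was left out before rescaling, the median gene fell to -2.95 and 10701 genes were called higher in the cytoplasm, since the nuclear sum is then mostly Scarna2. FPKM shows how the RNA of a compartment is divided, and not whether a nucleus holds fewer copies of an RNA than a cytoplasm.

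Nuclear libraries differed more from each other than cytoplasmic ones did. The median SD of log2 values as deposited over 3 libraries was 0.46, 0.36 and 0.31 for genes of low, middle and high level in the nuclei, and 0.16, 0.11 and 0.098 in the cytoplasms. Shifts of whole libraries enter these SDs. The summed FPKM without small RNA genes was 323500, 234780 and 314060 in the nuclei and 424130, 404710 and 403210 in the cytoplasms. Among the cytoplasms, replicate 1 held more of the most abundant nuclear RNAs, such as Rmrp at 1.79% of its nuclear mean against 0.0840 and 0.0655% in replicates 2 and 3 (rescaled). The same share was 7.60, 6.97 and 7.31% for the median gene called higher in the nucleus on both scales with at least 5 FPKM in the higher compartment. Replicate 1 did not stand apart in this median, but it did for Malat1 (0.426, 0.0767 and 0.0600%).

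Snora47, Snord17 and Scarna2 were among the genes with the highest nuclear FPKM. Their sequences follow from GENCODE M21 (build GRCm38, the strand of the RNA), since they belong to both structural families. In Snora47 (chr13:95330600-95330737, + strand) the capitals mark the ACA near the end that gives box H/ACA RNAs their name. In Snord17 (chr2:144265979-144266216, - strand) and the last 150 bases of Scarna2 (chr3:108554338-108554487, - strand) they mark the first TGATGA, the core of the C box, and the last CTGA, the D box.
Snora47: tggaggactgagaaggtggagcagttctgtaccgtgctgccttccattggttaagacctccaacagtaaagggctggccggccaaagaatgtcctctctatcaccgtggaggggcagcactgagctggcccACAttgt
Snord17: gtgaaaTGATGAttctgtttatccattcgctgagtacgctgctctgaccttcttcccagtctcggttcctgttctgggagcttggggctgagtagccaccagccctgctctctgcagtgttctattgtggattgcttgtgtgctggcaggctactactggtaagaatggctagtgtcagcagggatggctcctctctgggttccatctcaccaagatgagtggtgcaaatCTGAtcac
Scarna2: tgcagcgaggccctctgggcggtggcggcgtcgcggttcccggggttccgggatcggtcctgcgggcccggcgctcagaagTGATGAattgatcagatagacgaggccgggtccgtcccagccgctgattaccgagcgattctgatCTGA
Read along the RNA, TGATGA followed by CTGA stood in 7 of 33 tested snoRNAs and scaRNAs with an annotated sequence (21.2%), in 24.1% of all 1558 such transcripts and in 0.498% of 1005 microRNA hairpins. ACA within the last 8 bases stood in 24 of the 33 (72.7%), in 47.6% of all such transcripts and in 12.9% of the hairpins. Both kinds were thus among the nuclear RNAs, and the share with ACA was above that of the whole annotated class.

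Only 34 of 114 listed snoRNA and scaRNA genes reached the level for a test, and 33 of these were higher in the nucleus as deposited (background 12.4%) and 0 in the cytoplasm. Of the 34, 13 were below 1 FPKM in all cytoplasms and so passed the level only through the nuclei, and the count describes those tested and not the class. Scarna2 was at 2030000, 1090000 and 2170000 FPKM in the nuclei and at 16982, 0 and 0 FPKM in the cytoplasms. Snora47 was at 23020, 17422 and 26601 FPKM in the nuclei and at 115, 176 and 83.4 FPKM in the cytoplasms (log2 7.52 ± 0.35 (SE), limma adjusted p = 3.62e-06). Snord17 was at 7645, 9220 and 9459 FPKM against 204, 1.18 and 0 FPKM. Every nucleus was above every cytoplasm for these 3 genes, and only Snora47 kept more than 50 FPKM in each cytoplasm. Scarna17, Snora5c and Snora68 were listed at 0 in all 3 cytoplasms, as were 12 of the 33 annotated genes, and they held 7371, 4476 and 11607, then 1754, 2396 and 1381, then 4020, 1220 and 1055 FPKM in the nuclei. Rnu11 and Rnu12, RNAs of the minor spliceosome, were at 4900, 3768 and 5658 FPKM and at 5037, 7842 and 8496 FPKM in the nuclei. In the cytoplasms they were at 142, 18.2 and 20.1 FPKM and at 262, 4.80 and 10.6 FPKM, highest in replicate 1. Of these 33 RNAs, 32 are shorter than the 300 bp at which the library fragments begin (79 to 414 bases), and how the length enters their FPKM was not tested.

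The genes that hold these RNAs were more often higher in the cytoplasm than genes at large. In GENCODE, 26 of the 33 lie on the same strand within another listed gene, 12 of them in an intron and the rest touching an exon of some transcript. Of the 24 host genes tested, 3 were higher in the nucleus and 20 in the cytoplasm as deposited (backgrounds 12.4% and 60.3%). The counts were 3 and 19 after rescaling (16.1% and 46%), and 3 and 6 under all 5 scalings (10.5% and 10.1%). The hosts' median log2 difference was -1.24 as deposited and -0.82 rescaled, beside -1.0 and -0.65 for all genes. In 25 of 25 pairs the small RNA stood above its host. Snora47 lies in an intron of Zbed3, a zinc finger gene whose own FPKM was 957, 913 and 1021 in the nuclei and 3008, 3003 and 3237 in the cytoplasms (log2 -1.68 ± 0.26). Scarna6, at 11187 FPKM in the nuclei and 63.9 in the cytoplasms on average, lies in an intron of the autophagy gene Atg16l1, which stood at 56.1 and 125 FPKM. Snora31 lies in an intron of Tpt1 and was listed at 0 in the cytoplasms, while Tpt1 stood at 48.6 FPKM in the nuclei and 212 FPKM in the cytoplasms. The hosts on the nuclear side were Snhg1, Snhg8 and Snhg10, which are themselves noncoding.

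**Figure D2:**
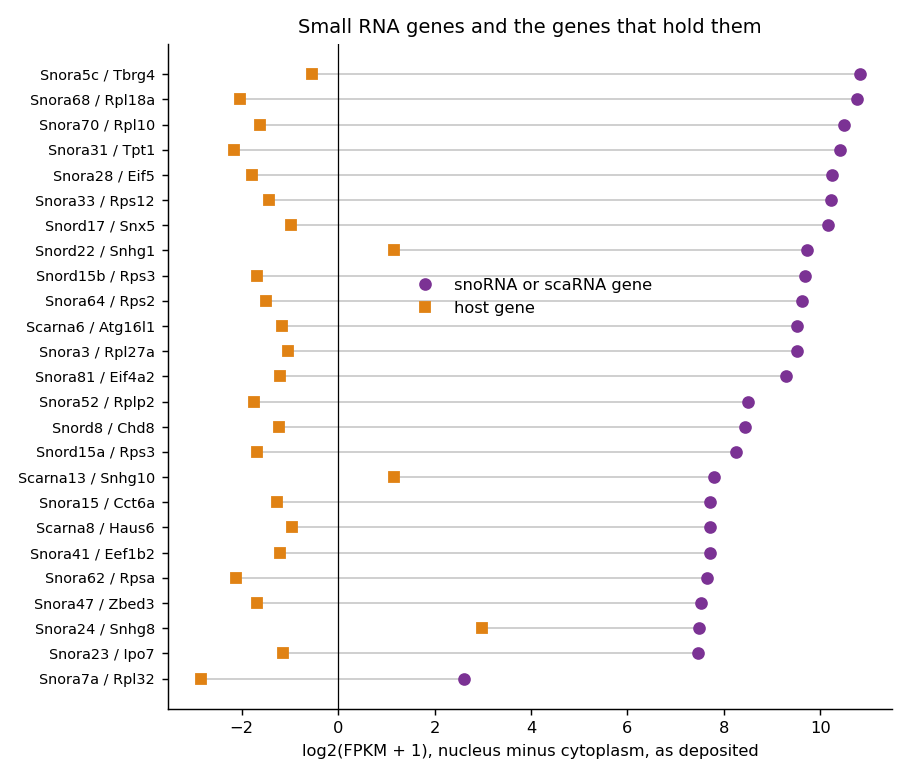
Difference between nucleus and cytoplasm in log2(FPKM + 1), as deposited (horizontal axis), for 25 snoRNA or scaRNA genes (circles) and the gene that holds each (squares), with the pair named on the left; genes listed at 0 are drawn at log2(0 + 1). Each small RNA lies to the right of its host, and all hosts but Snhg1, Snhg8 and Snhg10 lie left of 0.

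MicroRNA genes did not share 1 side. Of 19 tested, 4 were higher in the nucleus and 7 in the cytoplasm as deposited (backgrounds 12.4% and 60.3%). One of the 4, Mir17hg, is a long host transcript and not a hairpin gene. Mir762 was the most abundant of the 7 in the cytoplasm and Mir1905 was listed at 0 in all nuclei, and their sequences follow from RefSeq (GRCm38). Mir762 lies at chr7:127708487-127708562 (+ strand) and Mir1905 at chr3:88536301-88536382 (- strand). Capitals mark the mature sequence in each hairpin and the seed, bases 2 to 8, in each mature sequence.
Mir762 hairpin: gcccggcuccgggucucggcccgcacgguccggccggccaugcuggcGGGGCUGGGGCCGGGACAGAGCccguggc
mmu-miR-762: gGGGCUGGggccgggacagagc
Mir1905 hairpin: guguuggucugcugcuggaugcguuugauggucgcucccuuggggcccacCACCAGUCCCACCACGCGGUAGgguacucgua
mmu-miR-1905: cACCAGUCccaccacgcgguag
The seeds differ. Mir762, on the strand opposite to an exon of Bcl7c, was at 19612, 13804 and 14903 FPKM in the cytoplasms, the highest mean of all genes there, and at 3638, 5523 and 2864 FPKM in the nuclei (log2 -2.04 ± 0.46, limma adjusted p = 0.0035). Bcl7c itself stood at -2.05, the same side, and reads of the 2 strands cannot be told apart where strand was not used in counting. Mir1905, opposite to an exon of Mex3a, was at 417, 602 and 664 FPKM in the cytoplasms and listed at 0 in all 3 nuclei. On the nuclear side, Mir1940 was at 26275, 40371 and 42328 FPKM in the nuclei and at 611, 120 and 97.2 FPKM in the cytoplasms. Mir22 was at 846, 0 and 554 FPKM in the nuclei and 454, 197 and 338 FPKM in the cytoplasms, and was not called. Libraries of 300 to 400 bp hold no mature microRNA, and which RNA gave these values was not tested.

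Structured noncoding RNAs that work in the nucleus were the next most one-sided group. Of 8 tested, 6 lay on the nuclear side and 1 on the cytoplasmic side (backgrounds 10.5% and 10.1%; the scaling without them leaves 4), with the rescaled median at 7.26 above that of all genes. Rmrp, the RNA of RNase MRP, which cuts precursor ribosomal RNA, was at 95986, 34420 and 83743 FPKM in the nuclei and at 1799, 80.4 and 62.5 FPKM in the cytoplasms (rescaled log2 8.80 ± 1.14, limma adjusted p = 0.00045). Rpph1, the RNA of RNase P, which trims transfer RNA, was at 18480, 13956 and 20750 FPKM against 977, 95.7 and 119 FPKM (log2 6.80 ± 0.76). Rprl3, an RNase P RNA-like gene, followed it closely, at 8392, 12031 and 12344 FPKM against 571, 62 and 81.9 FPKM. Terc, the RNA template of telomerase, was at 991, 121 and 682 FPKM against 2.63, 0 and 0 FPKM (log2 9.61 ± 0.90). In each of these genes the nuclei lay above all cytoplasms and cytoplasm replicate 1 was the highest cytoplasm. The exception was Rn45s, the precursor of ribosomal RNA, listed at 0 in all 3 nuclei and at 1880, 805 and 332 FPKM in the cytoplasms; ribosomal RNA had been depleted, and the part of that step in these values was not tested.

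Most tested members of a list of nuclear long noncoding RNAs lay on the nuclear side as well. Of 9 tested in the list, 6 lay on the nuclear and 0 on the cytoplasmic side, with the rescaled median at 4.06 above that of all genes. Kcnq1ot1 and Meg3 were below 1 FPKM in all cytoplasms and so passed the level only through the nuclei. Malat1 is shown for its end, where U-rich motifs and an A-rich tract are known to fold into a triple helix that protects the RNA (GENCODE M21, chr19:5795982-5796067, - strand, GRCm38). Capitals mark the 4 stretches that match the letter patterns of the search below. The match TTTTGTTTT is by letters only and is not taken as part of the helix.
Malat1: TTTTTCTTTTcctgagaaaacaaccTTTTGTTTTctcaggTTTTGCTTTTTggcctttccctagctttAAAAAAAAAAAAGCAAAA
A search along each RNA for 4 or more T, then C, G or GC, then 4 or more T, followed within 100 bases by 5 or more A, GC and 4 or more A, met 3 of 29501 annotated long noncoding transcripts (0.0102%), from Malat1, Neat1 and Retreg3. The stretch thus describes Malat1 and not the group. Malat1 differed by 8.88 ± 0.49 after rescaling (limma adjusted p = 2.5e-05). Kcnq1ot1, the imprinted RNA that runs antisense to Kcnq1, was at 43.5, 22.7 and 38.8 FPKM in the nuclei and 0.183, 0.0745 and 0.110 FPKM in the cytoplasms (log2 6.52 ± 0.25). Airn, the imprinted antisense RNA of Igf2r, was at 38.5, 18.9 and 22.8 FPKM against 1.27, 1.39 and 2.09 FPKM (log2 4.23 ± 0.28). Ipw, from the Prader-Willi region, was at 117, 94.8 and 151 FPKM against 0.960, 3.34 and 5.05 FPKM. Peg3as, antisense to the imprinted Peg3 and not in this list, stood at 4.85 ± 0.31. All 3 nuclei exceeded all 3 cytoplasms for each of these RNAs. Rian and Peg13 were the other 2 of the list on the nuclear side. Meg3 stood at 2.04 after rescaling but was not called under all 5 scalings. Tug1 was the member higher in the cytoplasm on both scales (rescaled log2 -0.62 ± 0.17) but not under all 5 scalings, and Pvt1 was not called (0.45 ± 0.28). Neat1 (at most 0.886 FPKM) and Xist (at most 0.173 FPKM) were too low to be tested.

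Most tested genes of the snoRNA host list lay on the nuclear side. This list shares only some genes with the hosts of the tested small RNAs above, which were mostly higher in the cytoplasm as deposited. Of 15 tested snoRNA host genes of the list, 11 lay on the nuclear and 0 on the cytoplasmic side (9 without nucleus replicate 2, 7 without cytoplasm replicate 1). Among them Snhg4, Snhg7, Snhg8 and Gas5 were below 1 FPKM in all cytoplasms and so passed the level only through the nuclei. The count is thus partly set by the filter and describes the genes tested. Snhg8 was at 8.24, 7.50 and 6.88 FPKM in the nuclei and at most 0.125 FPKM in any cytoplasm (rescaled log2 4.54 ± 0.30). Snhg3 was at 19.7, 4.36 and 11.3 FPKM against 0, 1.40 and 0.442 FPKM, and Gas5, a growth-arrest transcript, was at 4.80, 3.89 and 4.11 FPKM against 0.495, 0.337 and 0.175 FPKM. Their nuclei did not overlap the cytoplasms. Snhg1 differed less, at 43.0, 24.3 and 38.7 FPKM against 9.89, 16.3 and 20.3 FPKM (log2 1.69 ± 0.27). A protein-coding host, Taf1d, an RNA polymerase I factor, was also on the nuclear side (2.79). The 2 called higher in the cytoplasm on both scales were coding too, namely Nop56, a snoRNP core protein (-0.88 ± 0.17), and Eif4a2, a translation helicase (-0.73 ± 0.13); neither kept the call under all 5 scalings.

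Sides differed between classes of the tested genes. Of 493 tested genes that GENCODE calls long noncoding, 241 lay on the nuclear side (48.9%) and 11 on the cytoplasmic side (2.23%). Of 94 pseudogenes the counts were 37 (39.4%) and 5 (5.32%), and of 11214 protein-coding genes they were 922 (8.22%) and 1180 (10.5%). Of the 493 long noncoding genes 158 were below 1 FPKM in all cytoplasms and so entered through their nuclei alone, as did 22 of the 94 pseudogenes and 639 of the protein-coding genes. Among those on the nuclear side, 144, 21 and 543 had entered in this way, so the shares are partly set by the filter. Gm and Rik genes, named for predicted or cloned transcripts without a given name, had 349 of 1262 on the nuclear side and 72 on the cytoplasmic side (275 and 26 without cytoplasm replicate 1). 4930470H14Rik, a long intergenic RNA on chromosome 17, was at 1149, 674 and 1122 FPKM in the nuclei and 7.17, 2.84 and 2.83 FPKM in the cytoplasms. A130077B15Rik, on chromosome 10, was at 1004, 555 and 921 FPKM against 4.53, 1.27 and 1.14 FPKM (rescaled log2 8.93 ± 0.40). Gm12238, a sense-intronic gene of 124 bases inside G3bp1, was at 91.5, 444 and 96.1 FPKM in the nuclei and listed at 0 in all 3 cytoplasms. The nuclei exceeded the cytoplasms for all 3, and nucleus replicate 2 was the lowest nucleus of the first 2 and the highest of Gm12238.

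Some annotated protein-coding genes were as nuclear as Malat1. Zfp488, a zinc finger gene on chromosome 14, was at 535, 268 and 485 FPKM in the nuclei and 1.77, 0.319 and 0.490 FPKM in the cytoplasms (rescaled log2 9.03 ± 0.38, limma adjusted p = 8.3e-06). Grk4, a receptor kinase gene on chromosome 5, was at 279, 165 and 264 FPKM against 1.63, 0.512 and 0.499 FPKM. The receptor loci Olfr613 (olfactory) and Vmn1r58 (vomeronasal), both on chromosome 7, were at 234, 127 and 206 FPKM and at 305, 172 and 293 FPKM in the nuclei, and no cytoplasm held more than 1.17 FPKM of either. The pseudogene Olfr856-ps1, on chromosome 9, was at 464, 239 and 398 FPKM against 1.31, 0.260 and 0.394 FPKM. In these 5 genes nucleus replicate 2 was the lowest nucleus and cytoplasm replicate 1 the highest cytoplasm, without overlap. GENCODE gives Olfr613, Vmn1r58 and Olfr856-ps1 transcripts of at most 2 exons, and Grk4 up to 16.

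Olfactory and vomeronasal receptor genes, which belong to sensory neurons, formed a nuclear group. Of 1437 in the table only 44 reached the level for a test, and 25 of these lay on the nuclear and 1 on the cytoplasmic side (19 and 0 without cytoplasm replicate 1). The rescaled median was 2.66, which is 3.31 above that of all genes. Vmn2r55 was at 22.0, 8.06 and 19.5 FPKM in the nuclei and 0, 0.0436 and 0.0721 FPKM in the cytoplasms. Since a gene with values near 0 in the cytoplasms passes the level only through its nuclei, the count over those tested describes them and not the family.

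Zinc finger genes as a class did not stand apart. Of 270 tested Zfp genes, 18 lay on the nuclear and 20 on the cytoplasmic side (27 and 33 without nucleus replicate 2, 12 and 5 without cytoplasm replicate 1), and the median was 0.01 from that of all genes. Zfp277 stood out by level, at 569, 312 and 564 FPKM in the nuclei and 34.3, 42.7 and 32.7 FPKM in the cytoplasms (log2 4.17 ± 0.16). Zfp300 and Zfp607 stood at 5.18 ± 0.28 and 5.17 ± 0.32, each below 1 FPKM in all cytoplasms.

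Single members of housekeeping groups also went against their group. Eif2ak2, the kinase PKR that halts translation on double-stranded RNA, was at 15.1, 7.51 and 11.4 FPKM in the nuclei and 0.370, 0.373 and 0.437 FPKM in the cytoplasms (log2 4.31 ± 0.27), the only 1 of 64 translation factors on the nuclear side. Sec16b, of the sites where cargo leaves the endoplasmic reticulum, was at 15.8, 17.3 and 31.2 FPKM against 1.26, 3.59 and 3.34 FPKM (log2 3.33 ± 0.41). Mll5, a chromatin regulator also called Kmt2e, was at 6.70, 4.53 and 9.52 FPKM against 0.762, 0.456 and 0.423 FPKM (log2 3.38 ± 0.31). Sarnp, of the TREX mRNA export complex, was at 9.74, 13.6 and 20.5 FPKM against 3.90, 1.96 and 2.76 FPKM (log2 2.67 ± 0.35). The nuclei lay above the cytoplasms in all 4 genes. Rps27 stood at 4.33 ± 0.37 on the nuclear side while Rpl26 stood at -3.75 ± 0.35, but both ribosomal protein genes have near-identical copies in the genome, so their values are uncertain. Lars2, a mitochondrial leucyl-tRNA synthetase gene in none of these groups, was named as the 6th most abundant entry of the nuclei. It was at 9461, 29444 and 2143 FPKM in the nuclei and 79.4, 115 and 55.1 FPKM in the cytoplasms, without overlap. Nucleus replicate 2 held the most of it by far, and which RNA its reads come from was not tested.

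Genes of meiotic chromosomes were divided. Of 20 tested genes of the synaptonemal complex, cohesin and recombination, 4 lay on the nuclear and 1 on the cytoplasmic side (2 and 1 without cytoplasm replicate 1, 4 and 3 without nucleus replicate 2). Sycp2, a lateral element protein of the synaptonemal complex, was at 45.1, 23.0 and 48.9 FPKM in the nuclei and 12.4, 12.9 and 13.4 FPKM in the cytoplasms (rescaled log2 2.0 ± 0.19, limma adjusted p = 0.00014). Prdm9, which marks recombination sites, was at 2.05, 1.56 and 3.37 FPKM against 0.536, 0.473 and 0.474 FPKM (1.98 ± 0.32). Stag3, a meiotic cohesin subunit, and Mei4, needed for meiotic DNA breaks, stood at 1.92 ± 0.27 and 1.67 ± 0.27. Sycp3, the partner of Sycp2, went the other way, at 6.37, 4.98 and 5.74 FPKM in the nuclei and 33.1, 28.4 and 23.8 FPKM in the cytoplasms (-1.75 ± 0.17). Neither Sycp2 nor Sycp3 overlapped between the compartments. Under rescaling with no gene left out Sycp2 turned to -0.76, as the whole table then moved down.

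Splicing regulators stood somewhat to the nuclear side of the median gene. The 27 tested CLK kinases and SR proteins had a median 0.49 above that of all genes after rescaling, and 0.36 to 0.52 above it over the 5 scalings. Of them 2 lay on the nuclear and 0 on the cytoplasmic side, with 8 and 0 without nucleus replicate 2, and 1 and 0 without cytoplasm replicate 1. Luc7l2, a splicing factor, was at 22.5, 13.2 and 25.6 FPKM in the nuclei and 11, 9.92 and 8.46 FPKM in the cytoplasms (log2 1.49 ± 0.19), and Tra2a stood at 1.30 ± 0.22. Clk1, a kinase of SR proteins, was at 33.2, 11.6 and 28.3 FPKM against 37.3, 34.6 and 33.9 FPKM and was not called (-0.16 ± 0.26; its sign turned under 3 of the other scalings). Of 72 chromatin modifiers, 4 lay on the nuclear side, with Mll5, Chd2, Tet2 and Kdm5a, and 7 on the cytoplasmic side (6 and 7 without nucleus replicate 2, 1 and 0 without cytoplasm replicate 1).

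**Figure D3:**
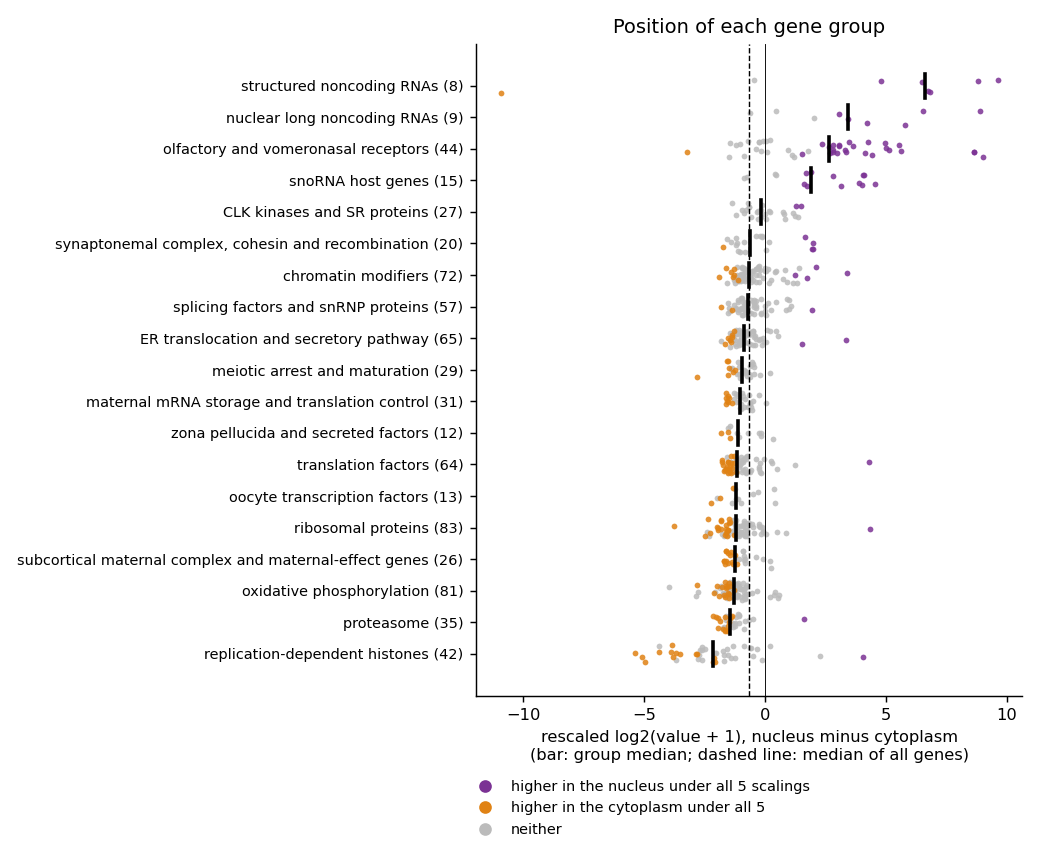
Rescaled difference between nucleus and cytoplasm in log2(value + 1) (horizontal axis) for each tested member (dots) of 19 gene groups, with the number tested in parentheses, a bar at the group median and a dashed line at the median of all genes (-0.65). The 4 upper groups have medians between 1.88 and 6.61, and histones have the lowest, at -2.13.

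Many messages of the growing oocyte were higher in the cytoplasm after rescaling. Gdf9, the oocyte-secreted growth factor that drives granulosa cells, was at 922, 737 and 912 FPKM in the nuclei and 3215, 3353 and 3482 FPKM in the cytoplasms (rescaled log2 -1.46 ± 0.13, limma adjusted p = 9.4e-05). Its partner Bmp15 was at 465, 239 and 364 FPKM against 1009, 1169 and 1143 FPKM (-1.17 ± 0.16), called on both scales but not under all 5. Nobox, a transcription factor of follicle growth, was at 47.0, 44.2 and 61.8 FPKM against 254, 279 and 259 FPKM (-1.87 ± 0.14). No nucleus reached a cytoplasm in these 3 genes. Of 13 tested oocyte transcription factors, 3 lay on the cytoplasmic and 0 on the nuclear side (1 and 0 without cytoplasm replicate 1), Figla being uncalled after rescaling (-0.28 ± 0.23; above 0 under 3 other scalings). Relative to all genes the median of these 13 was -0.55 after rescaling and 0.04 under quantile normalization. Kit, the receptor for Kit ligand, was closer to the median gene, at 90.5, 53.5 and 98.7 FPKM against 168, 164 and 176 FPKM (-0.60 ± 0.14; above 0 under quantile normalization).

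Maternal-effect genes, whose products the embryo inherits, had 14 of 26 on the cytoplasmic side (11 without cytoplasm replicate 1) and 0 on the nuclear side. Their rescaled median was -1.23, which is 0.59 below that of all genes. Relative to all genes it was -0.25 under quantile normalization. Ooep, of the subcortical maternal complex, was at 178, 145 and 223 FPKM in the nuclei and 957, 776 and 762 FPKM in the cytoplasms (-1.69 ± 0.14). Nlrp14, an oocyte protein of the NLR family, was at 502, 314 and 522 FPKM against 2020, 1867 and 1896 FPKM (-1.63 ± 0.13). Npm2, a histone chaperone of the egg, stood at -1.69 ± 0.11 and Nlrp5, another complex member, at -1.37 ± 0.12. Padi6, in contrast, was at 1046, 717 and 1386 FPKM against 2746, 2435 and 2488 FPKM (-0.82 ± 0.17) and kept its call on both scales only. The compartments did not overlap for any of these 5 genes.

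Of 29 tested genes of meiotic arrest and maturation, 7 lay on the cytoplasmic and 0 on the nuclear side. Their median relative to all genes was -0.31 after rescaling and -0.06 under quantile normalization. Mos, the kinase that starts the MAP kinase cascade of maturation, was at 110, 75.5 and 107 FPKM in the nuclei and 428, 384 and 432 FPKM in the cytoplasms (-1.59 ± 0.10). Ccnb1, the cyclin of maturation-promoting factor, stood at -1.54 ± 0.13. Aurkc, a meiotic kinase, was the most cytoplasmic of the abundant mRNAs outside the histones, at 15.6, 9.85 and 8.18 FPKM against 121, 89.1 and 121 FPKM (-2.79 ± 0.24). Of 31 genes of mRNA storage and translation control, 8 lay on the cytoplasmic and 0 on the nuclear side (5 and 0 without cytoplasm replicate 1). Their median relative to all genes was -0.37 after rescaling but 0.06 under quantile normalization. Btg4, an adaptor of the CCR4-NOT deadenylase, was at 212, 174 and 193 FPKM against 866, 951 and 753 FPKM (-1.63 ± 0.13). Dazl, a translation activator, stood at -0.98 ± 0.14 and turned to 0.03 under quantile normalization.

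The zona pellucida genes encode the coat of the egg and are transcribed strongly while the oocyte grows. Zp2 was at 1757, 986 and 2315 FPKM in the nuclei and 1957, 1632 and 1807 FPKM in the cytoplasms (rescaled log2 0.34 ± 0.21, limma adjusted p = 0.19). Zp3 was at 1485, 900 and 2229 FPKM against 2579, 2240 and 2505 FPKM (-0.25 ± 0.23), and Zp1 at 638, 326 and 836 FPKM against 932, 827 and 952 FPKM (-0.18 ± 0.23). The compartments overlapped for Zp1 and Zp2 as deposited, and nucleus replicate 2 was the lowest nucleus for all 3. Among 727 protein-coding genes with at least 100 FPKM in the cytoplasms, the median rescaled difference was -1.27 and 714 were called higher in the cytoplasm. Zp2, Zp1 and Zp3 ranked 3rd, 7th and 9th from the nuclear end of these 727, and Astl, which encodes the protease ovastacin that cuts ZP2, ranked 8th (-0.18 ± 0.18). The 2 called higher in the nucleus were Trappc9, a trafficking complex gene (0.69 ± 0.12; 226, 136 and 206 FPKM against 171, 150 and 172 FPKM), and 4930562C15Rik (0.65 ± 0.18). None of these 6 was called as deposited except Astl (-0.69 ± 0.28, higher in the cytoplasm). The signs of Zp1, Zp2, Zp3 and Astl turned among the 5 scalings. Trappc9 and 4930562C15Rik were above 0 under all 5, but stood at -2.12 and -2.16 with no gene left out before rescaling. These ranks were the same under 4 of the 5 scalings, but under quantile normalization Zp2, Astl, Zp1 and Zp3 ranked 5th, 7th, 19th and 423rd, so that Zp3 left the nuclear end. Dnmt1, the maintenance DNA methyltransferase, ranked 12th (33rd under quantile normalization; -0.38 ± 0.13). Astl, Trappc9, 4930562C15Rik and Dnmt1 were chosen after their values were seen.

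**Figure D4:**
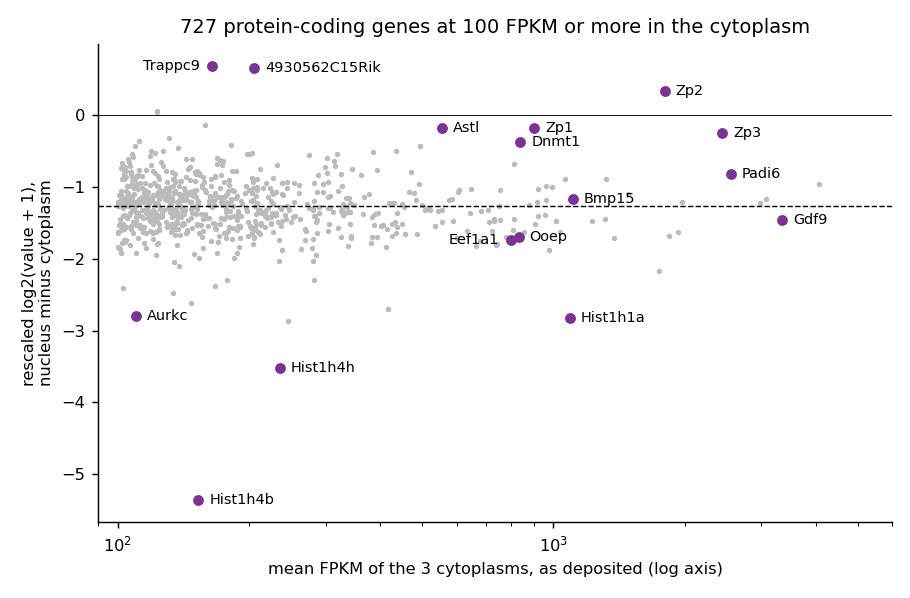
Rescaled difference between nucleus and cytoplasm in log2(value + 1) (vertical axis) against the mean FPKM of the 3 cytoplasms (log axis) for 727 protein-coding genes with at least 100 FPKM there; 16 are named. The dashed line is their median (-1.27); Zp2 lies at 0.34 and Hist1h4b at -5.36.

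Messages of the protein-making and protein-degrading machines were cytoplasmic beyond the median gene after rescaling. Of 35 tested proteasome genes, 15 lay on the cytoplasmic side and 1, Psmb11, a thymus-type subunit, on the nuclear side (8 and 1 without cytoplasm replicate 1), with a median 0.80 below that of all genes. Psmd10, a chaperone of proteasome assembly, was at 3.0, 2.60 and 5.24 FPKM in the nuclei and 23.5, 26.4 and 21.1 FPKM in the cytoplasms (-2.17 ± 0.24). Psmb1 and Psma6, of the catalytic core, stood at -2.04 ± 0.20 and -1.95 ± 0.16. Of 64 translation factors, 21 lay on the cytoplasmic side (8 without cytoplasm replicate 1), and Eef1a1, which carries transfer RNA to the ribosome, was at 182, 139 and 183 FPKM against 880, 766 and 754 FPKM (-1.74 ± 0.10). Of 83 ribosomal protein genes, 22 lay on the cytoplasmic side (9 without cytoplasm replicate 1). Relative to all genes their median was -0.57 after rescaling but -0.0078 under quantile normalization. For proteasome genes and translation factors it was -0.46 and -0.24 under quantile normalization. Rpl32 was at 23.7, 16.9 and 26.3 FPKM in the nuclei and 205, 163 and 133 FPKM in the cytoplasms (-2.38 ± 0.16).

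Respiratory chain genes showed the same side with a wider spread. Of 81 tested genes of oxidative phosphorylation, 17 lay on the cytoplasmic and 0 on the nuclear side, but 27 did without nucleus replicate 2 and 3 without cytoplasm replicate 1. Of the 81, 74 were below the median of all genes after rescaling. Ndufa7, a complex I subunit, was at 13.5, 1.83 and 12.6 FPKM in the nuclei and 84.7, 63.3 and 70.4 FPKM in the cytoplasms (-2.83 ± 0.56). Ribosome assembly factors counted 9 of 39 on the cytoplasmic side (5 without cytoplasm replicate 1). Nhp2, which encodes a protein of box H/ACA particles, was at 3.13, 1.27 and 1.65 FPKM against 31.9, 19.5 and 23.4 FPKM (-3.0 ± 0.29). These values are of its mRNA, and the protein that binds the H/ACA RNAs was not measured.

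Replication-dependent histone genes, whose mRNAs end in a stem-loop in place of a poly(A) tail, had the lowest median of any group, 1.48 below that of all genes. Of 42 tested, 14 lay on the cytoplasmic side and 1, Hist1h1t, a linker histone gene known from testis, on the nuclear side (10 and 1 without cytoplasm replicate 1). Hist1h4h was at 22.9, 7.41 and 14.4 FPKM in the nuclei and 339, 181 and 186 FPKM in the cytoplasms (-3.52 ± 0.32, limma adjusted p = 0.00012). Hist1h4b was at 11.3, 4.58 and 0 FPKM against 172, 148 and 139 FPKM (-5.36 ± 1.17), and Hist1h1a at 91.6, 118 and 101 FPKM against 1563, 931 and 779 FPKM (-2.83 ± 0.29). Hist1h2ah and Hist1h4j were listed at 0 in all 3 nuclei and at 19.4, 8.15 and 11.5, and at 4.59, 10.1 and 11.6 FPKM in the cytoplasms. Hist1h1t went the other way, at 9.45, 3.58 and 3.72 FPKM in the nuclei and 0, 0 and 0.145 FPKM in the cytoplasms. Histone H4 genes encode nearly the same sequence, so their split between copies is uncertain.

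**Figure D5:**
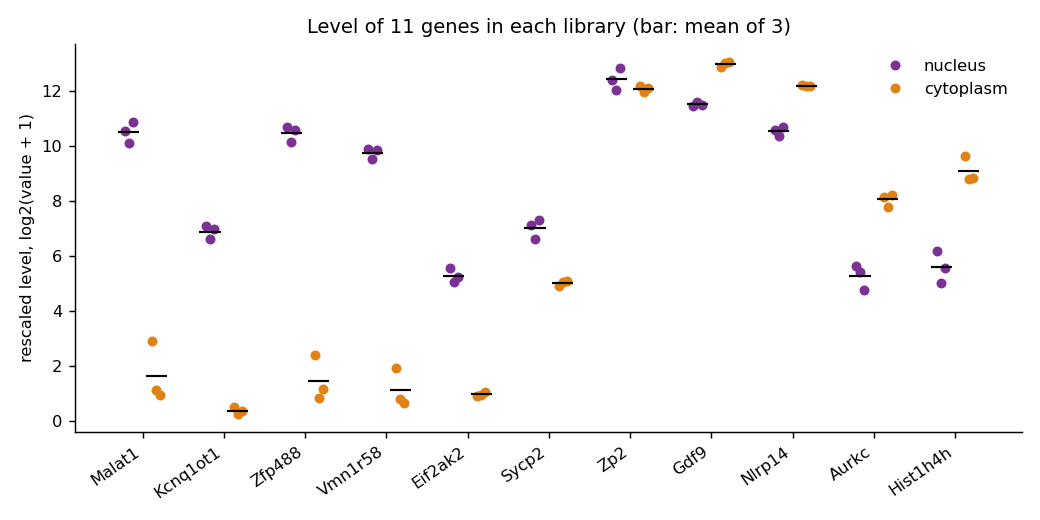
Rescaled level as log2(value + 1) (vertical axis) of 11 genes in the 3 nuclei and 3 cytoplasms (dots), with a bar at the mean of 3. Zp2 is the only gene drawn whose nuclei and cytoplasms overlap.

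Genes for the nuclear RNA decay system and for export were mostly near the median gene. The Mtr4 gene itself, listed as Skiv2l2, had a level of 6.06, 2.45 and 5.37 FPKM in the nuclei and 21.1, 19.4 and 20.2 FPKM in the cytoplasms (-1.65 ± 0.24). Of 26 tested nuclear exosome and MTR4 adaptor genes, 5 lay on the cytoplasmic side and 1, the adaptor Zcchc7, on the nuclear side (0 and 1 without cytoplasm replicate 1). Zcchc7 was at 15.1, 10.9 and 25.5 FPKM in the nuclei and 6.74, 6.48 and 6.37 FPKM in the cytoplasms (1.76 ± 0.25). Exosc1, an exosome cap subunit, was at 3.54, 4.65 and 4.33 FPKM against 16.4, 18.5 and 17.5 FPKM (-1.49 ± 0.24). Of 29 CCR4-NOT and decay genes 3 and 0, of 23 mRNA export genes 3 and 2, of 36 nuclear pore and lamina genes 7 and 2, and of 65 secretory pathway genes 7 and 2 lay on the cytoplasmic and nuclear sides. Without cytoplasm replicate 1 the cytoplasmic counts of these 4 groups were 1, 1, 2 and 2. Their medians were 0.20 to 0.28 below that of all genes after rescaling. Under quantile normalization the medians relative to all genes were 0.13, 0.01, 0.08 and -0.03, in the same order. Splicing factors counted 2 of 57 and 1 (5 and 3 without nucleus replicate 2, 0 and 0 without cytoplasm replicate 1), small RNA pathway genes 3 of 19 and 0 (0 and 0 without cytoplasm replicate 1), and immediate early genes 2 of 10 and 0 (1 and 0).

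Gene structure differed little between the sides for protein-coding genes. The median exon length in GENCODE was 3886.5 bases for the 922 on the nuclear side, 3307 for the 1180 on the cytoplasmic side and 4648.5 for the rest, and the median genomic span was 18659, 17440 and 26526.5 bases. Genes with a single exon made up 4.34, 2.88 and 1.77% of these groups. With the genes split by exon length into 4 bins of equal size, the median rescaled difference was -0.93 in the shortest bin, then -0.76 and -0.67, and -0.48 in the longest. The share called higher in the nucleus on both scales ran the other way, from 12.3% in the shortest bin to 8.17% in the longest. This describes genes that share libraries and was not tested.

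The WT difference was also set beside that of the oocytes labelled Mtr4-null. The interaction of compartment and genotype was called for 119 of 11977 genes (0.994%; 1590 at an unadjusted p below 0.05), 109 of them with a larger nuclear excess in WT. Genes entered by their level in the WT libraries alone, so genes high only in the libraries labelled Mtr4-null were not tested, and the split of the calls is shaped by this. Skiv2l2 goes against 1 of these labels: nucleus 1 labelled Mtr4-null held 7.98 FPKM of it, above every WT nucleus, where nuclei 2 and 3 so labelled held 0.182 and 1.12 FPKM. Leaving nucleus 1 out gave 475 calls, among them all 119, and leaving nucleus 3 out gave 291, of which 118 were shared. Only 5 genes were called with a replicate block and 59 with a pseudocount of 0.1. 4930470H14Rik had the largest interaction among the named genes, 5.20 on the log2 scale (limma adjusted p = 0.00048). In the libraries labelled Mtr4-null it was at 604, 350 and 687 FPKM in the nuclei and 82.1, 66.1 and 97.6 FPKM in the cytoplasms, where the WT cytoplasms held 7.17, 2.84 and 2.83 FPKM.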

How the data were processed

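Deposited values are FPKM, made by the authors with TopHat2 2.1.1 and Cufflinks 2.2.1 on build mm9 per the submitters' processing notes. Which annotation was used, and whether strand was, is not given in the sources used here. Read depth is unknown, no detection limit was set, and a 0 can be a failed estimate, so no fold is given for a single gene against a group at 0, while fits and list medians take such values as log2(0 + 1). Columns were matched to samples by title, and no 2 libraries were identical. Genes that reached 1 FPKM in 3 or more of the WT libraries were tested with limma 3.58.1 (R 4.3.3; variance trend, two-sided, Benjamini-Hochberg over all genes tested, calls at an adjusted p below 0.05) on log2(FPKM + 1). The same was done on values rescaled to a sum of 1000000 without genes named Scarna, Snora, Snord, Mir, Rnu or Rn7s, and the interaction used all 12 libraries and these rescaled values. Values after ± are standard errors.

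Named genes were those called alike on both scales, without overlap and with at least 5 FPKM in the higher compartment (10 with a given name and 2 Gm or Rik genes each way), the 5 small RNA genes most different each way, up to 4 called members of each list or its 2 most abundant, the 10 most abundant genes of each compartment, and a set of oocyte and nuclear RNA genes. Named outside this rule, after their values were seen, were Chd2, Tet2, Kdm5a, Prdm9, Stag3, Mei4, Tra2a, Gas5, Snhg1, Snhg10, Nop56, Eif4a2, Rian, Peg13, Tug1, Pvt1, Hist1h1a, Hist1h1t, Psmb11, Rpl32, Zcchc7, Mir22, Mir17hg, Snora31, Dnmt1, Trappc9, Astl, 4930562C15Rik and the hosts or opposite genes Tpt1, Atg16l1, Bcl7c and Mex3a. The comparison, the members of the 37 lists and the tests were chosen with earlier results of these data known, and the summary over 5 scalings was added after seeing the data. The lists for antisense transcripts (its pattern took in other genes) and mitochondrially encoded genes (0 in the table) were not described. Gene classes, lengths and sequences come from GENCODE M21 (GRCm38), to which 20835 entries matched by symbol and 1930 by synonym, and microRNA sequences from RefSeq; no coordinate of the mm9 files was used. The test was tried on simulated data with 200 genes changed. Replicate numbers were not taken as pairs.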

Additional observations from a re-analysis of the deposited data

Results flagged for a closer look

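Among the named genes of the nuclear side, 13 had a WT difference between the compartments that differed from the Mtr4-null one by the interaction test (larger nuclear excess in WT, for which these genes had been chosen). On the log2 scale the interaction was 5.20 for 4930470H14Rik, 3.69 for Zfp488, 3.65 for Olfr613, 3.61 for A630089N07Rik, 3.50 for Olfr856-ps1, 3.49 for Airn, 3.39 for A130077B15Rik and 3.31 for Vmn1r58. It was 2.88 for Grk4, 2.78 for Zfp607, 2.68 for 4932411L15, 2.64 for Sarnp and 2.55 for Mll5. For Zfp488 the nuclei labelled Mtr4-null gave 223, 48.9 and 168 FPKM, against 535, 268 and 485 FPKM in WT. The cytoplasms labelled Mtr4-null gave 2.35, 4.78 and 4.24 FPKM of it, against 1.77, 0.319 and 0.490 FPKM. Airn had 38.5, 18.9 and 22.8 FPKM in WT nuclei and 14.6, 3.48 and 4.70 FPKM in the nuclei labelled Mtr4-null, while its cytoplasms held 1.27 to 2.09 FPKM in WT and 3.39 to 6.62 FPKM in Mtr4-null. Sarnp was at 9.74 to 20.5 FPKM in the WT nuclei and 3.29 to 3.62 FPKM in the nuclei labelled Mtr4-null. All 13 stayed called when nucleus 1 labelled Mtr4-null, which goes against its label by its Skiv2l2 level, was left out, and likewise without nucleus 3. Under the replicate block 12 of the 13 were no longer called, and 7 were not at a pseudocount of 0.1. 4930470H14Rik was called in both of these fits.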

How the results depend on the processing

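As deposited, genes higher in the nucleus numbered 513 among those of 5 FPKM or more and 2659 under median-of-ratios scaling; genes higher in the cytoplasm numbered 2538 under median-of-ratios scaling and 2520 under quantile normalization. After rescaling the nuclear count was 701 at 5 FPKM or more and 765 with no gene left out. The cytoplasmic count was 2573 (median-of-ratios), 2219 (quantile), 1848 (structured RNAs also left out) and 10701 (no gene left out). The nuclear share of calls was 17.1% as deposited and 25.9% rescaled, 51.2% under median-of-ratios, 42.9% under quantile and 57.4% without structured RNAs, and 6.67% with no gene left out; the cause was not tested. Signs turned as deposited under median-of-ratios scaling for Astl (0.35), Clk1 (0.37), Figla (0.24), Zp1 (0.36), Zp2 (0.87) and Zp3 (0.29), and under quantile normalization for Clk1 (0.59), Figla (0.37) and Kit (0.20). After rescaling they turned under median-of-ratios for Astl (0.35), Clk1 (0.37), Figla (0.24), Zp1 (0.36) and Zp3 (0.29), and under quantile for Astl (0.73), Clk1 (0.62), Dazl (0.028), Figla (0.39), Kit (0.40) and Zp1 (0.45). Without structured RNAs they turned for Astl (0.41), Clk1 (0.43), Figla (0.31), Zp1 (0.41) and Zp3 (0.35). With no gene left out 4930562C15Rik (-2.16), Ier2 (-0.31), Luc7l2 (-1.21), Sycp2 (-0.76), Trappc9 (-2.12) and Zp2 (-2.48) turned.

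Leaving out each library in turn gave 1296 to 1831 nuclear and 6330 to 7514 cytoplasmic calls as deposited, and 1625 to 2153 and 4277 to 5699 after rescaling. As deposited 4930562C15Rik ranged from -0.017 to 0.36 and Zp2 from -0.45 to 0.17; rescaled, Clk1 ranged from -0.36 to 0.16 and Zp1 from -0.41 to 0.061. The labels do not say whether a nucleus and a cytoplasm of the same replicate number came from the same oocytes. The correlation of their deviations as deposited was -0.13, -0.03 and -0.03. It cannot decide this, since differences between whole libraries enter the deviations. With the replicate block 1479 and 7269 genes were called as deposited and 1801 and 5302 rescaled. The interaction was called for 5 genes with the block, 59 with a pseudocount of 0.1, and 475 and 291 without nucleus 1 or nucleus 3 labelled Mtr4-null. Depth is unknown and limits every low value.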
